A study of Mus musculus with 13 samples.

Results

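The genes described here are 10 activity-regulated immediate early genes, Fos, Fosb, Junb, Egr1, Egr3, Arc, Npas4, Dusp1, Ier2 and Homer1, read in excitatory neurons of the mouse claustrum by single-cell RNA sequencing (scRNA-seq). They were taken from a named list and not by a rule on measured values, though earlier results of these data were known when they were chosen. They are 10 of the 23427 genes in the count tables. Their counts were read in 1011 of the 1112 harvested cells, namely those with at least 1 count of Snap25 (a synaptic protein of neurons) and at least 1 of Slc17a7 (the vesicular glutamate transporter of cortical excitatory neurons). Cells were captured by hand from the microdissected and dissociated claustrum of 4 mature male C57BL/6 mice, in 13 plates.

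All 4 mice carried a retrograde tracer, and none was labelled as stimulated or as having performed a task. In 1 animal, the blindly sampled mouse, whose plates are labelled WT, rAAV2-retro-CAG-GFP injected into the anterior cingulate cortex guided the dissection, and its 238 kept cells, in 3 plates, were picked without regard to GFP. In the other animals, projection mice 1, 2 and 3, green retrobeads were placed in the lateral entorhinal cortex (LEC) and red retrobeads in the retrosplenial cortex (RSC). These mice gave 224, 220 and 329 kept cells in 10 plates, each cell recorded as RSC-labelled, LEC-labelled or unlabelled. An unlabelled cell may still project to either area, since beads reach only part of a projection. In 9 of the 10 projection plates all cells carried 1 label, so that label and plate cannot be told apart, and plate 12 of projection mouse 3 holds both RSC-labelled and LEC-labelled cells.

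Kept cells of the blindly sampled mouse had a median total of 26023 counts, and those of the projection mice of 138535 to 154262 counts. Depth and animal cannot be told apart between it and the others. Per the methods 3 plates shared one flow cell and the other 10 another, without saying which plates these were. A count was read as 1 sequencing read, the unit in which the methods give totals, so several counts may come from 1 molecule. Wells drew on one set of barcodes, and 343 of the 368 cell barcodes were used in more than 1 plate. The excitatory markers Snap25, Slc17a7, Camk2a and Nrgn were present in every mouse, the 6 inhibitory markers were at 0 or not listed in the blindly sampled mouse, and Sst reached 35.6 and 49.98 CPM (counts per 1000000 counts of a cell or sum) in projection mice 1 and 3. With 4 mice, p-values measure the spread between animals, and intervals on shares of cells cover counting error only.

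Immediate early genes are transcribed within minutes of strong synaptic activity, without the need for new proteins, when calcium entry activates kinases that act on transcription factors already bound to DNA, CREB and SRF among them. Their transcripts are short-lived, so a level at harvest reflects the recent past of a cell, and dissection and dissociation are themselves known to induce them. In cortical neurons they serve as marks of recently active cells and as the first step of longer-lasting changes at synapses. The list holds transcription factors (Fos, Fosb and Junb of the AP-1 family, Egr1 and Egr3 of the zinc finger type, and Npas4, which responds mainly to calcium in neurons), effectors at the synapse (Arc, which removes AMPA receptors, and Homer1, a scaffold of metabotropic glutamate receptors whose short form is induced by activity), a phosphatase that shuts off MAP kinases (Dusp1), and Ier2, a nuclear protein of the early response.

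Promoters are printed to show the element through which CREB acts, the cAMP response element (CRE), because CREB is among the factors known to switch on these genes. No value below ties an element to a level. The letters searched on both strands were TGACGTCA for a full CRE and TGACG or CGTCA for its core, and a full CRE holds both forms of the core, which overlap. RefSeq windows (GRCm38.p6) of 250 bases before the start were at hand for 6 members, Fos, Fosb, Junb, Npas4, Dusp1 and Homer1. Capitals mark cores and full elements, 5′ to 3′ on the strand of the gene.
Fos promoter, chr12:85473640-85473889, plus strand: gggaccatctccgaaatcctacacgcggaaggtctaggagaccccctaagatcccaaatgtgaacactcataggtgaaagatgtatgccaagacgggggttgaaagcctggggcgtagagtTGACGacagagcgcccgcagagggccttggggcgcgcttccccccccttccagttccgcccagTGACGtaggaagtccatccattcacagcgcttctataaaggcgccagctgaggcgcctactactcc
Npas4 promoter, chr19:4989972-4990221, minus strand: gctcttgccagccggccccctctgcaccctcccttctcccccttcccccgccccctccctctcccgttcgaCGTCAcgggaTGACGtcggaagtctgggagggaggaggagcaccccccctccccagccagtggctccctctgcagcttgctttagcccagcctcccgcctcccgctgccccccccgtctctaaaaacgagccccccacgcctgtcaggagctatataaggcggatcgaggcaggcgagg
Junb promoter, chr8:84978749-84978998, minus strand: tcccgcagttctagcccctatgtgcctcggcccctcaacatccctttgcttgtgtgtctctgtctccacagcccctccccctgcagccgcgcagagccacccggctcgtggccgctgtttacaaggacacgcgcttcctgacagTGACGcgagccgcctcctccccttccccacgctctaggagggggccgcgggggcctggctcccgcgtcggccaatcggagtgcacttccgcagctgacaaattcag
Dusp1 promoter, chr17:26508473-26508722, minus strand: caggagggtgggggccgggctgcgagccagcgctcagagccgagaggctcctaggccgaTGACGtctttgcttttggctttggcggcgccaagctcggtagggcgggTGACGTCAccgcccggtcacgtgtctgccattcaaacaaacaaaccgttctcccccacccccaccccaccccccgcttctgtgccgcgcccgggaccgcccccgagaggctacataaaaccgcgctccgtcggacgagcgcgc
Homer1 promoter, chr13:93303507-93303756, plus strand: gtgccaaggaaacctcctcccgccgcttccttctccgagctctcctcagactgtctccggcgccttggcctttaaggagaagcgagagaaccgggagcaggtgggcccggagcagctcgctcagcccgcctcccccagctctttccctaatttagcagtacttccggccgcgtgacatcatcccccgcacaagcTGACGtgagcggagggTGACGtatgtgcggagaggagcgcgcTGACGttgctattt

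At least 1 core lay in the window of each of these 6 members, against 17.8% of 32851 windows of the same length before all starts. In Fos the cores began 129 and 66 bases before the start, in Fosb 60, in Junb 106, in Npas4 179 and 169, and in Homer1 56, 40 and 14. Dusp1 held a full element, 143 bases before the start, which 1.55% of all windows held, and a further core at 191. Homer1 has a second start whose window (chr13:93307784-93308033) held none. The CArG box, the letters bound by SRF, was in none of the 6 windows and in 1.47% of all windows, which says only that these letters are absent from these stretches. A match is a description of the sequence and not evidence of binding in these cells.

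The level of the AP-1 genes differed several-fold between mice. Fos stood at 36.5 CPM in projection mouse 1, 63.4 in projection mouse 2, 117 in the blindly sampled mouse and 182 in projection mouse 3. Junb followed the same order, with 107, 144, 273 and 312 CPM. Fosb was lower throughout, with 3.57 CPM in projection mouse 1, 5.83 in the blindly sampled mouse, 11 in projection mouse 2 and 19.0 in projection mouse 3. CPM are of counts summed over all kept cells of a mouse.

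The zinc finger genes split into one found in most cells and one found almost nowhere. Egr1 stood at 101 and 110 CPM in projection mice 1 and 2, 195 in projection mouse 3 and 223 in the blindly sampled mouse. Egr3 never passed 0.271 CPM in a mouse, and only 1, 2, 1 and 4 cells of the blindly sampled mouse and projection mice 1, 2 and 3 held a count of it. It was too low for any test and is left out of the comparisons below unless named. Npas4 stood at 15.7, 28.9 and 47.3 CPM in projection mice 1, 2 and 3 and at 41.7 in the blindly sampled mouse.

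Of the effectors, Arc stood at 42.6, 47.4 and 121 CPM in projection mice 1, 2 and 3 and at 95.8 in the blindly sampled mouse. Homer1 varied least between mice, with 78.0 CPM in both projection mice 1 and 2, 111 in the blindly sampled mouse and 116 in projection mouse 3, a ratio of highest to lowest of 1.49. This row counts all transcripts of Homer1, so the short inducible form and the long constitutive forms cannot be told apart. Dusp1 was highest in the blindly sampled mouse, at 90.8 CPM, against 49.9 in projection mouse 3 and 21.6 and 18.1 in projection mice 1 and 2. Ier2 stood at 25.2, 33.0 and 54.9 CPM in projection mice 1, 2 and 3 and at 32.5 in the blindly sampled mouse. The exons of Junb overlap those of Prdx2 and the exons of Dusp1 those of Ergic1 on the opposite strand, and since the use of strand in counting is not given in the sources used here, reads of these pairs may be mixed.

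**Figure D1:**
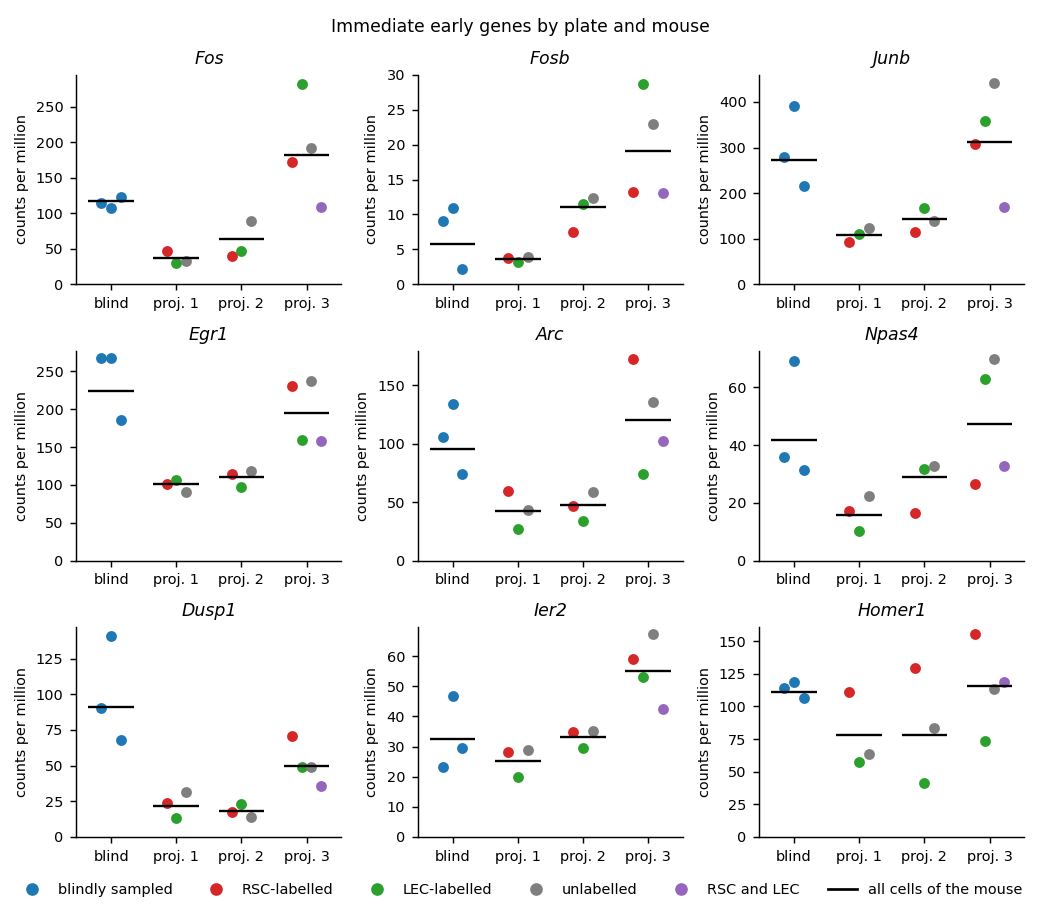
Level of 9 members in CPM (vertical axis, each panel from 0) in each plate, grouped by mouse (horizontal axis), with 1 point a plate coloured by the projection label of its cells and a bar at the level over all cells of the mouse. For Fos, all 4 plates of projection mouse 3 lie at or above 108 CPM and all 6 plates of projection mice 1 and 2 at or below 89.3 CPM, whereas the plates of these mice overlap for Npas4 and Homer1.

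The separation of projection mouse 3 held plate by plate, although its plates of RSC-labelled, LEC-labelled and unlabelled cells differed among themselves. Fos was 172, 282, 192 and 108 CPM in plates 6, 7, 8 and 12 of this mouse, and between 29.6 and 89.3 CPM in the 6 plates of projection mice 1 and 2. Every plate of projection mouse 3 lay above every plate of the other projection mice for 7 of the 9 members that reached 10 CPM in a mouse, namely Fos, Fosb, Junb, Egr1, Arc, Dusp1 and Ier2. Over all 9372 genes at that level 79 did so, which is 0.843%. For Fosb the gap was narrow, with 13.1 CPM in the lowest plate of projection mouse 3 and 12.3 in the highest of the others, and for Junb it lay between 171 and 167 CPM. Npas4 and Homer1 overlapped between these mice. Projection mouse 3 was singled out after its values were seen, 4 plates of 1 animal are no replicates, and no test was made.

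Outside the list the same order was found for some other immediate early genes and was rare among genes at large, at 79 of 9372. Among 28 other immediate early genes at 10 CPM or more, 5 lay higher in every plate of projection mouse 3: Egr2, Fosl2, Nr4a1, Gadd45b and Tiparp. Among 21 upstream regulators the one that did so was Map2k1, a kinase of the MAP kinase pathway, with 698 CPM against 531 and 542. It held for 0 of 10 later activity-induced genes, which follow the first wave, and for 0 of 10 heat shock genes, which rise under stress of the cell. The summed level of the heat shock list was 6508 CPM in projection mouse 3 and 6421 and 6389 CPM in projection mice 1 and 2. Most of each sum was Hsp90ab1, at 4147, 4115 and 4152 CPM, so the sum says little of the other genes. Hspa1a stood at 15.99 CPM in projection mouse 3 against 12.2 and 11.997, and Dnajb1 at 97.3 against 83.5 and 86.99. Hspa8 was higher there too, at 359 against 336 and 339 CPM, as was Hspa5, at 357 against 325 and 326 CPM. Hsph1 stood at 581 against 571 and 527 CPM. Hspa1b, Hspb1 and Bag3 were also higher, but at no more than 1.33 CPM. Hspe1 was lower, at 81.5 against 94.2 and 86.2 CPM, and Hsp90aa1, Hsp90ab1, Dnaja1 and Hspd1 lay between. These differences were not tested. The summed level of the oligodendrocyte list was lower in projection mouse 3, at 85.1 CPM against 495 and 368. Whether the part of handling in these levels differed between animals was not tested, because the time from death to capture is not among the labels.

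The blindly sampled mouse lay above every plate of projection mice 1 and 2 for 5 of the 9 members, Fos, Junb, Egr1, Arc and Dusp1. This order held for 941 of 9372 genes, or 10%, so it was common among all genes in that mouse. Of 10 heat shock genes 4 did so. The summed level of that list was 10016 CPM against 6389 to 6508 CPM in the projection mice, and the excess lay mainly in a pair of its genes. Hspa8, a constitutive chaperone, stood at 2704 CPM there and between 336 and 359 CPM in the others, and Hsp90aa1 at 1794 against 415 to 429 CPM, while Hsp90ab1 was lower, at 3755 against 4115 to 4152 CPM, as were Hsph1 and Hspa5. The parts of handling, of depth and possibly of flow cell and read length in these differences cannot be told apart.

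Within a mouse, all members but Npas4 and Fosb varied less between plates than the median gene, which was not matched to them in level. The biological coefficient of variation between plates of the same animal, the square root of the dispersion in edgeR, ran from 0.183 for Egr1 to 0.401 for Fosb. It was 0.232 for Ier2, 0.249 for Junb, 0.287 for Fos, 0.300 for Dusp1, 0.303 for Arc, 0.321 for Homer1 and 0.364 for Npas4, beside a median of 0.343 over 14359 genes. Homer1 stood apart in projection mouse 2, with a ratio of the highest to the lowest plate of 3.13, where the other members had ratios of 1.20 to 2.23. There the plate of RSC-labelled cells stood at 129.6 CPM, that of unlabelled cells at 83.9 and that of LEC-labelled cells at 41.4.

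To compare cells of unequal depth, each cell was thinned to 20000 counts, which left out 84 shallower cells and kept 927. The cells left out were mostly of the blindly sampled mouse, where 171 of 238 were kept. In projection mice 1, 2 and 3 these were 217 of 224, 212 of 220 and 327 of 329. Thinned values of the blindly sampled mouse thus rest on its deeper cells. In the 927 thinned cells, a cell held counts of 3.54 members on average, and 278 cells (29.99%) held 5 or more. The mean was 2.91 and 3.03 in projection mice 1 and 2, 3.80 in projection mouse 3 and 4.46 in the blindly sampled mouse. Cells with none of the 10 were few, 35 of 927. Without thinning the mean was 5.02 in projection mouse 3 and 4.51 in the blindly sampled mouse, so their order depends on the thinning, whereas projection mice 1 and 2 were lowest either way.

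The members differed in how their signal was spread over cells. Junb was found in 67.9% to 86.5% of thinned cells of a mouse, Egr1 in 53.8% to 77.2%, Homer1 in 46.5% to 62.6% and Arc in 30.7% to 60.8%. Fos was found in 18.9%, 29.2%, 35.5% and 42.1% of those of projection mice 1, 2 and 3 and the blindly sampled mouse, and Npas4 in 11.5%, 20.3%, 18.4% and 29.2%. When cells were thinned to 10000 counts, Fos was found in 33.3% of those of projection mouse 3 and 31.5% of those of the blindly sampled mouse. The order of these mice for Fos thus depends on the thinning. The cells used differ too, with 235 of the blindly sampled mouse at 10000 counts and 171 at 20000 counts. The tenth of cells with the most Fos held between 65.3% and 79.5% of the summed CPM of Fos in a mouse, and that with the most Npas4 between 75.3% and 81.8%. For Homer1 that share was 33.8% to 44.1% and for Egr1 32.3% to 44.8%. Fos and Npas4 thus came mostly from few cells, and Egr1 and Homer1 from many.

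**Figure D2:**
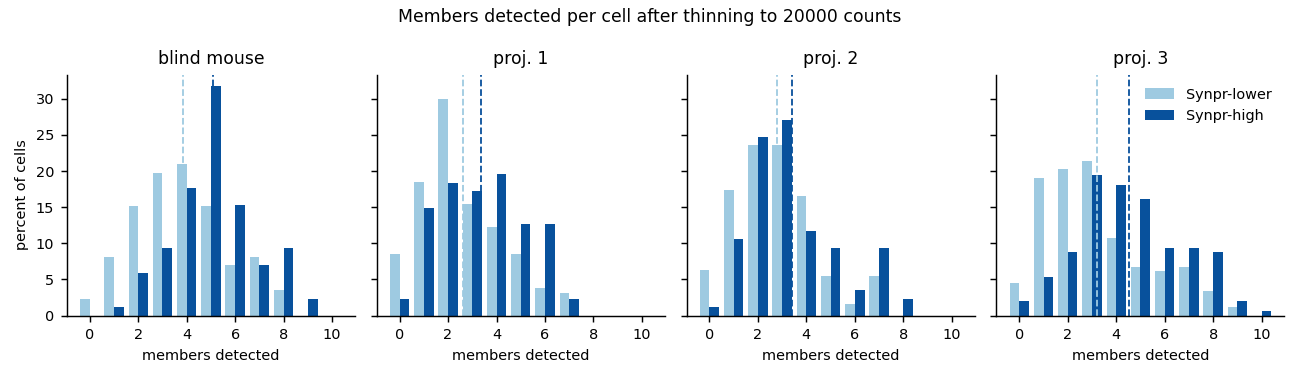
Share of cells in percent (vertical axis) by the number of the 10 members with a count (horizontal axis) in cells thinned to 20000 counts, for Synpr-high (dark) and Synpr-lower (light) cells of each mouse, with dashed lines at the means. The mean of Synpr-high cells lies to the right in all 4 mice, at 5.08, 3.37, 3.41 and 4.51 members against 3.84, 2.61, 2.77 and 3.21.

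Members were found in the same cells more often than their shares alone would give. For each pair of the 9 members without Egr3, the thinned cells holding both were set against the product of the shares, taken within each plate so that differences between plates and mice do not enter. All 36 pairs lay above that product, 27 of them in every mouse, and the median ratio was 1.20 (range, 1.03 to 1.92). Fos and Npas4 were both present in 110 cells where the product gives 59.7, a ratio of 1.84. Fosb and Npas4 shared 40 cells where the product gives 20.8, a ratio of 1.92. Fos and Fosb shared 58 cells against 33.6, and Fos and Ier2 112 against 70.9.

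Homer1 stood outside this group. Its 8 pairs had ratios of 1.03 to 1.13 with a median of 1.09, and the 28 pairs without it had a median of 1.27. Junb, which most cells held, has little room above 1, so its ratios of 1.07 to 1.18 with members other than Homer1 cannot be read as a weaker tie. Correlations of log2(CPM + 1) across cells, centred within plates, do not have this limit, and there Junb stood with the others. The mean r over the 4 mice was 0.40 for Fos and Npas4, 0.37 for Fos and Junb, 0.37 for Junb and Egr1, and 0.36 for Junb and Arc. For Homer1 the highest was 0.16, with Arc. These values describe cells that share libraries and differ in depth. The mean of the members in a cell was itself correlated with the logarithm of the cell's total at r = 0.23 to 0.34 within mice. Cells of both Synpr classes described below share plates, so differences between the classes enter the ratios and correlations. The part of depth in the correlations and the part of class in both were not tested.

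**Figure D3:**
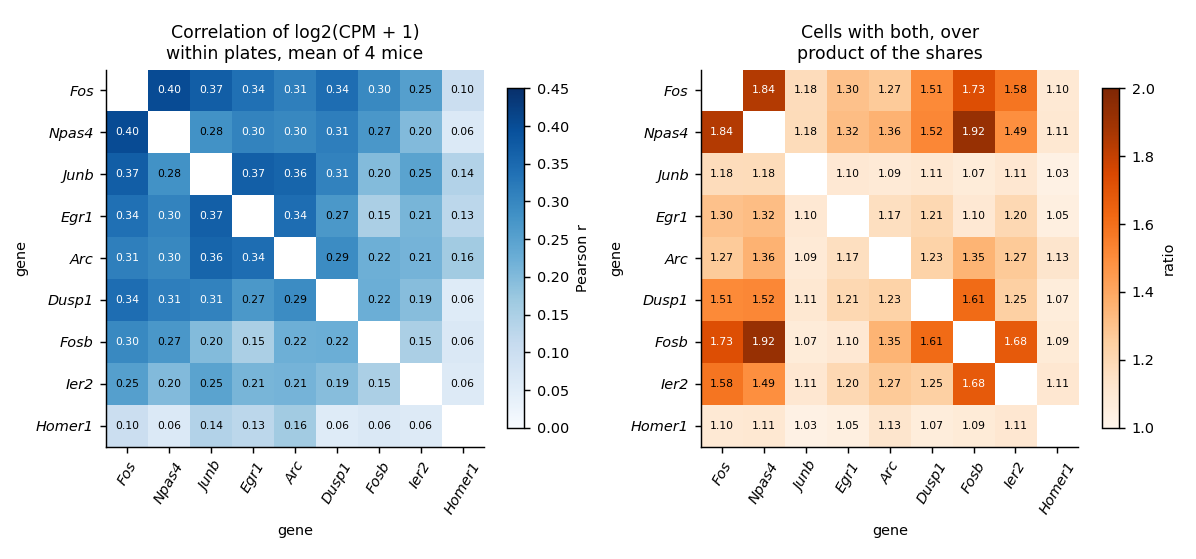
Pairs of 9 members: Pearson r of log2(CPM + 1) across cells within plates, as the mean of the 4 mice (left), and the ratio of thinned cells holding both members to the product of their shares (right). The highest r is that of Fos and Npas4, 0.40, and the row of Homer1 is the palest in both panels, with r of at most 0.16 and ratios of at most 1.13.

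Cells at the top for one member were often at the top for another, where unrelated genes would share about 10% of them. The top cells were taken within each mouse, so differences between its plates enter here. With the tenth of cells of each mouse taken for each gene (102 cells in all), 56 (54.9%) were shared by Fos and Junb, 56 by Junb and Npas4, 52 (51.0%) by Junb and Arc, 48 (47.1%) by Fos and Npas4, 45 (44.1%) by Arc and Npas4, and 42 (41.2%) by Fos and Arc. Genes outside the list were ranked by their correlation with the mean of the members across cells within plates, taking the lowest value over the 4 mice, among 8917 genes found in at least 10% of cells of every mouse. The first 8 were Nr4a1 (lowest r of 0.39), Egr4 (0.37), Dusp6 (0.32), Rcan2 (0.23), 1500009L16Rik (0.23), Kcnv1 (0.23), Synpr (0.22) and S100a10 (0.21), against a median of -0.019 over all genes ranked. Nr4a1, an orphan nuclear receptor, Egr4, a zinc finger factor, and Dusp6, a phosphatase of the MAP kinase ERK, are other immediate early or activity-induced genes. Rcan2, 1500009L16Rik, Kcnv1 and S100a10 were each higher in Synpr-high than in Synpr-lower cells, with log2 fold changes of 1.35 or more in the test described next, and Synpr itself defines these classes.

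Excitatory cells of the dissection were split by Synpr, which codes for the synaptic vesicle protein synaptoporin. In the paper Synpr marks the core subtype of claustrum neurons, beside a shell subtype and cortical neurons without this mark. Synpr-lower cells may thus hold both shell claustrum and cortical neurons. Synpr-high cells (438) had at least 200 CPM of Synpr and Synpr-lower cells (573) had less. Few cells lay near that limit, 13 between 100 and 200 CPM and 13 between 200 and 500 CPM. Both classes were present in every mouse, with 113, 88, 88 and 149 Synpr-high cells in the blindly sampled mouse and projection mice 1, 2 and 3. Counts were summed per mouse and class and compared over the 4 mice with the quasi-likelihood test of edgeR, p-values being adjusted after Benjamini and Hochberg over all 13641 genes tested, and levels are in CPM after TMM scaling.

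Homer1 was the member that passed the test between the classes and was higher in Synpr-high cells. Arc was higher in Synpr-high cells of all 4 mice but missed the threshold in the fit without a block, and the other members did not pass. Homer1 stood at 158, 115, 122 and 158 CPM in Synpr-high cells of the blindly sampled mouse and projection mice 1, 2 and 3, and at 83.1, 39.7, 50.8 and 69.5 CPM in their Synpr-lower cells. The lowest Synpr-high value, 115 CPM, lay above the highest Synpr-lower value, 83.1 CPM. The means were 138 ± 23.0 against 60.8 ± 19.3 CPM (SD, n = 4), a log2 fold change of 1.19 (SE 0.23) with an edgeR adjusted p of 0.0090. Without projection mouse 2 the adjusted p was 0.063, without projection mouse 3 it was 0.068, and with only the cells that carried no projection label the log2 fold change was 0.85 and the adjusted p 0.074.

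Arc stood at 152, 62.1, 73.9 and 176 CPM in Synpr-high cells of the blindly sampled mouse and projection mice 1, 2 and 3, and at 58.2, 22.4, 31.1 and 61.3 CPM in their Synpr-lower cells. The mice with most Arc had most in both classes, so the ranges nearly met at 62.1 and 61.3 CPM. The log2 fold change was 1.43 (SE 0.41) with an edgeR adjusted p of 0.060, which misses the threshold of 0.05. With the animal as a block, which the shared animals call for, it was 1.41 (SE 0.10) with an adjusted p of 0.00011. Both genes were also higher within plates, in 12 of the 12 plates with at least 5 cells of each class, with median log2 ratios of 1.40 for Arc and 0.96 for Homer1.

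The difference in Arc and Homer1 was also seen in how many cells held a count. In thinned cells, Arc was found in 67.2% of Synpr-high cells (95% exact interval, 62.4% to 71.8%) and 30.1% of Synpr-lower cells (26.2% to 34.3%). Homer1 was found in 74.4% (69.8% to 78.6%) and 40.1% (35.9% to 44.5%). For Fos the shares were 35.2% (30.6% to 40.1%) and 28.4% (24.6% to 32.5%), and for Npas4 they were 20.4% (16.6% to 24.7%) and 18.2% (15.0% to 21.8%). Egr3 was found in 4 of 406 thinned Synpr-high cells and in 0 of 521 Synpr-lower cells, which allows a share of up to 0.706% at this depth (95% exact interval). Without thinning, 1 Synpr-lower cell of projection mouse 1 and 1 of projection mouse 3 held a count of it, so Egr3 was present in both classes.

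**Figure D4:**
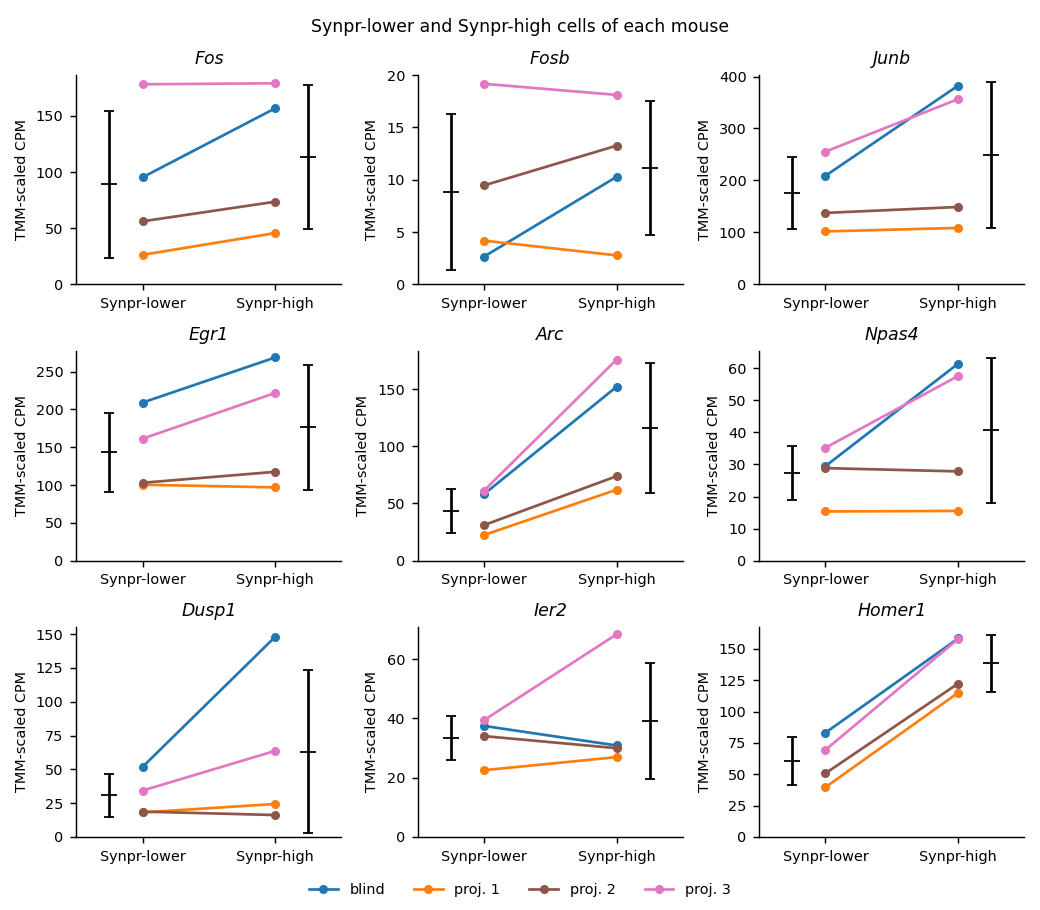
Level of 9 members in TMM-scaled CPM (vertical axis, each panel from 0) in Synpr-lower and Synpr-high cells, with 1 line a mouse and the mean ± SD of the 4 mice in black at the sides. Every line of Arc and Homer1 rises, from 22.4 to 61.3 CPM up to 62.1 to 176 CPM for Arc and from 39.7 to 83.1 CPM up to 115 to 158 CPM for Homer1, whereas the spread between mice is wider than the step for Fos and Fosb.

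In all, 1 of the 9 members tested passed the threshold, against 8.82% of all genes (611 higher and 592 lower in Synpr-high cells). With the animal as a block 2 members passed and 1995 genes were called. All 9 fold changes were above 0 in this fit, though Fosb fell to -0.077 in thinned cells and Ier2 to -0.0017 with the mean CPM of cells, and their median was 0.50 on the log2 scale beside -0.00060 over all genes tested. Fos differed by 0.35 (SE 0.56), Fosb by 0.30 (SE 0.65), Egr1 by 0.30 (SE 0.35), Ier2 by 0.24 (SE 0.31), Junb by 0.50 (SE 0.42), Npas4 by 0.57 (SE 0.42) and Dusp1 by 1.03 (SE 0.63), with edgeR adjusted p-values of 0.44 to 0.91. The mice differed in this. Junb was 382 against 209 CPM in the blindly sampled mouse and 356 against 256 CPM in projection mouse 3, but 109 against 102 and 149 against 138 CPM in projection mice 1 and 2. Npas4 likewise was 61.4 against 29.5 and 57.6 against 35.2 CPM in the first pair of mice, and 15.5 against 15.3 and 27.8 against 28.9 CPM in the second.

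Among other genes of the activity response, 4 of 34 other immediate early genes, 3 of 12 later activity-induced genes and 3 of 22 upstream regulators passed, beside the 8.82% of all genes, so counts this small say little about the lists. Of the other immediate early genes, Nr4a2, a nuclear receptor known as a claustrum marker, and Ier3, an early response gene of cell survival, rose in Synpr-high cells. Jun, a partner of Fos in AP-1, and Cyr61, a secreted matrix protein, fell. Nr4a2 stood at 1566 ± 183 against 187 ± 71.2 CPM (SD, n = 4) and Jun at 66.5 ± 4.94 against 185 ± 86.6 CPM. Of the later genes, Bdnf, a neurotrophin, and Crem, a CREB-related factor, rose and Adcyap1, a neuropeptide, fell. Bdnf stood at 1387 ± 382 against 456 ± 126 CPM. Of the upstream regulators, Mef2a, a transcription factor regulated by calcium, rose with a log2 fold change of 0.90, and Mkl2, a cofactor of SRF, and Rps6ka5, a kinase of CREB, fell. Of the 10 heat shock genes 0 passed by edgeR's test, with 2 at an unadjusted p below 0.05, and their median log2 fold change was 0.02.

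Markers of other cells also differed between the classes. The 5 oligodendrocyte genes tested had a median log2 fold change of -1.58, and the 1 inhibitory gene tested had 4.85. None of these passed. The summed level of the oligodendrocyte list was 26.0 to 355 CPM in Synpr-high cells and 48.5 to 633 CPM in Synpr-lower cells, and lower in the Synpr-high cells of all 4 mice. The inhibitory list reached 142 CPM in Synpr-high and 33.0 CPM in Synpr-lower cells of projection mouse 3, while all its members were at 0 or not listed in the blindly sampled mouse. Itm2a, listed as an endothelial gene, was higher in Synpr-high cells (156 ± 37.7 against 54.1 ± 5.68 CPM, SD, n = 4), while Pecam1, Flt1 and Ly6c1 were each below 1 CPM in every mouse. The parts of oligodendrocyte RNA and of inhibitory RNA in the difference between the classes were not tested.

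The projection label was compared over the 3 projection mice, with RSC-labelled, LEC-labelled and unlabelled cells in 1 fit that shares its samples between comparisons. Labels and Synpr classes overlapped in these cells. Of RSC-labelled cells 52 of 64, 56 of 70 and 105 of 113 were Synpr-high in projection mice 1, 2 and 3, against 18 of 80, 11 of 76 and 16 of 130 LEC-labelled cells and 18 of 80, 21 of 74 and 28 of 86 unlabelled cells.

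Homer1 was the member that differed between labels. In RSC-labelled cells it stood at 112, 132 and 162 CPM in projection mice 1, 2 and 3, and in LEC-labelled cells at 57.0, 41.1 and 75.4 CPM, so the groups did not overlap. The log2 fold change was 1.23 (SE 0.26) with an edgeR adjusted p of 0.025, and leaving out projection mouse 1, 2 or 3 gave adjusted p-values of 0.062, 0.22 and 0.089. Arc stood at 60.2, 47.6 and 161 CPM in RSC-labelled and at 26.7, 34.1 and 73.9 CPM in LEC-labelled cells, higher in 3 of 3 mice, with a log2 fold change of 0.997 (SE 0.55) and an adjusted p of 0.42. With the animal as a block, Arc differed by 0.94 (SE 0.19) with an adjusted p of 0.028. Thus 1 of 9 members passed, or 2 with the block, against 3.95% of all 13976 genes tested.

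Fos and Npas4 did not pass, and their direction differed between mice. Fos was 47.0, 40.8 and 136 CPM in RSC-labelled cells and 29.3, 47.1 and 220 CPM in LEC-labelled cells of projection mice 1, 2 and 3. Npas4 was 17.5, 16.9 and 22.9 CPM against 10.1, 31.3 and 55.4 CPM. Both were thus higher in RSC-labelled cells of projection mouse 1 and lower in those of the other mice. Their log2 fold changes were -0.40 (SE 0.77) and -0.76 (SE 0.54), and those of the remaining members ran from -0.83 for Fosb to 0.46 for Dusp1, with adjusted p-values of 0.57 to 0.89 over these 7 members. Without projection mouse 3 the log2 fold changes were 0.20 for Fos and -0.26 for Npas4, and without projection mouse 1 they were -0.58 and -1.11.

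**Figure D5:**
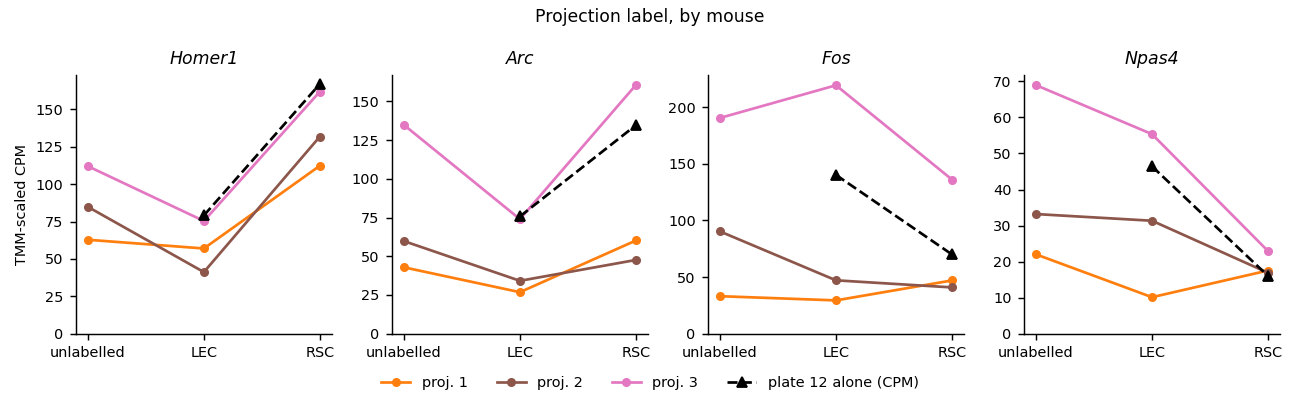
Level of Homer1, Arc, Fos and Npas4 in TMM-scaled CPM (vertical axis, each panel from 0) in unlabelled, LEC-labelled and RSC-labelled cells of each projection mouse, with the cells of plate 12, part of projection mouse 3, as black triangles in unscaled CPM. Homer1 is higher in RSC-labelled than in LEC-labelled cells in 3 of 3 mice and in plate 12, where it is 167 against 79.1 CPM, whereas Fos and Npas4 are lower there, at 69.9 against 140.3 and 16.0 against 46.4 CPM.

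Plate 12 is where label can be compared within 1 plate, in 34 RSC-labelled and 44 LEC-labelled cells of 1 mouse, with no replicate. Homer1 was 167 CPM in the RSC-labelled and 79.1 CPM in the LEC-labelled cells there, and Arc 135 and 75.7 CPM. Fos was 69.9 against 140.3 CPM, Junb 127 against 206 CPM and Npas4 16.0 against 46.4 CPM. Within the Synpr-high cells of this plate, 29 RSC-labelled and 10 LEC-labelled, Homer1 was 159.6 against 155 CPM and Arc 149 against 153 CPM, whereas Fos was 78.5 against 158 CPM, Fosb 6.10 against 27.2 CPM, Ier2 37.2 against 92.6 CPM and Npas4 17.5 against 127 CPM. Among its Synpr-lower cells Homer1 was 227 CPM in 5 RSC-labelled and 47.7 CPM in 34 LEC-labelled cells, Fos 1.22 against 133 CPM and Arc 18.3 against 43.8 CPM. Sums of 5 or 10 cells can be set by a single cell.

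Among Synpr-high cells of the 3 mice, RSC-labelled and LEC-labelled cells differed in Homer1 by 0.21 (SE 0.47) and in Arc by 0.24 (SE 0.61) on the log2 scale. The largest differences among the members were -1.31 (SE 1.05) for Fosb and -1.20 (SE 0.78) for Npas4. By edgeR's test 0 of 9 members passed, against 0% of 13163 genes, with 0 members and 724 genes at an unadjusted p below 0.05, and DESeq2 called 42 genes and 0 members. The errors are wide, so differences of this size could not be told from the spread between mice.

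Against unlabelled cells, RSC-labelled cells had 0 of 9 members past the threshold, against 1.63% of all genes. Homer1 was higher in 3 of 3 mice, with a log2 fold change of 0.64 (SE 0.26) and an edgeR adjusted p of 0.29, and Npas4 lower in 3 of 3 mice, with -1.11 (SE 0.54) and 0.41. Before TMM scaling Junb was also lower in 3 of 3 mice, at 92.6, 115 and 241 CPM against 124, 138 and 443 CPM. Fosb and Ier2 were lower there too, though by little in projection mouse 1. Of the 9 fold changes 3 were above 0. LEC-labelled cells had 0 of 9 members past the threshold, against 0% of all genes by edgeR, with 1079 genes at an unadjusted p below 0.05, while DESeq2 called 123 genes and 0 members. Arc, Npas4, Ier2 and Homer1 were lower in LEC-labelled than in unlabelled cells of all 3 mice, with log2 fold changes of -0.82, -0.36, -0.38 and -0.58 that did not pass.

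Unlabelled Synpr-high cells held the highest levels of the AP-1 genes and Npas4 in projection mouse 3. In its 28 such cells Junb was 790 CPM, Fos 331 CPM and Npas4 151 CPM, against 252, 142 and 23.7 CPM in its 105 RSC-labelled Synpr-high cells. Over all 86 unlabelled cells of this mouse the median was 4.04 CPM for Fos and 0 for Npas4. The highest cells held 2135 and 1083 CPM, so a few cells can set such sums. In projection mice 1 and 2, Npas4 was 16.3 and 36.8 CPM in unlabelled and 17.7 and 18.7 CPM in RSC-labelled Synpr-high cells, so it was no lower in the RSC-labelled cells of projection mouse 1. There Junb was 190 and 162 CPM in unlabelled and 94.0 and 119.7 CPM in RSC-labelled Synpr-high cells. Junb differed by -1.30 (SE 0.56) with an unadjusted edgeR p of 0.031 and an adjusted p of 1, and Npas4 by -1.78 (SE 0.79) with an unadjusted p of 0.038. Without projection mouse 3 these were -0.74 and -0.58. Here too 0 of 9 members passed, against 0% of all genes by edgeR (465 genes at an unadjusted p below 0.05, and 10 by DESeq2, of which 0 were members). In Synpr-lower cells, LEC-labelled and unlabelled cells differed in 0 of 9 members, against 0.0228% of all genes, and the difference of that contrast between the classes passed for 0 of 9 members, against 0.0152%. Each label is a plate of its own in projection mice 1 and 2, and all unlabelled cells of projection mouse 3 are of plate 8. None of these contrasts thus separates the label from the plate.

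Markers of other cells were uneven between the labelled plates. The inhibitory list summed to 131, 6.80 and 197 CPM in RSC-labelled cells of projection mice 1, 2 and 3 and to at most 0.893 CPM in LEC-labelled cells, and the oligodendrocyte list to 929 CPM in RSC-labelled cells of projection mouse 1 and to between 37.4 and 675 CPM in the other sums. Their part in the differences of Homer1 and Arc was not tested.

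In the same comparison 3 of 34 other immediate early genes, 2 of 12 later genes and 1 of 22 upstream regulators passed, beside the 3.95% of all genes. Of the other immediate early genes, Nr4a2 was higher and Jun and Rgs2, a regulator of G protein signalling, lower in RSC-labelled than in LEC-labelled cells, with log2 fold changes of 1.58, -1.69 and -1.16. Of the later genes Inhba, a subunit of activin, and Adcyap1 were lower, and of the upstream regulators Mef2a was higher, by 1.05.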

How the data were processed

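The authors deposited raw counts per gene and cell in 1 table for the blindly sampled mouse (3 plates) and 1 for the projection mice (10 plates), with tables of each cell's plate, animal and projection label. Per the methods, reads were given their cell barcode and molecular tag and mapped by STAR. The submitters' processing notes name the build NCBIM37 and Seurat, while the annotation and the use of strand are not given in the sources used here. A gene of only 1 table was set to 0 in the other. ERCC spike-ins were left out. The filter removed 27 cells without Snap25 and then 74 without Slc17a7.

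Counts were summed per animal and class or label (at least 5 cells) and tested in edgeR 4.0.16 (quasi-likelihood F test after TMM scaling and filterByExpr, p-values adjusted over all genes by Benjamini-Hochberg, threshold 0.05), with DESeq2 1.42.0, limma 3.58.1 and other settings as alternatives, after a check on simulated data. Cells were thinned to 20000 counts without replacement. Correlations used log2(CPM + 1). Sums of the same animal are pairs by origin. Their deviations had a median correlation of 0.232 (0.204 to 0.631) over 4 pairs of Synpr classes, and of 0.0449 over 9 pairs of labels. The samples, tests and most alternatives were written down first, but the members and lists were chosen with earlier results of these data known. The genes named were the members, list genes past the threshold and the 8 of highest correlation with the members. Later lists, the order of plates and the cells of plate 12 were singled out after their values were seen. Anterior and posterior slices were not analysed here. The tools were R 4.3.3, Python 3.11.15, numpy 2.4.6, pandas 2.3.3 and scipy 1.17.1.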

Additional observations from a re-analysis of the deposited data

Results flagged for a closer look

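In Synpr-high cells, Ier2 stood at 68.8 CPM in projection mouse 3, far from the other 3 mice, which lay between 27.0 and 29.6 CPM. In Synpr-lower cells, Egr3 stood at 0.322 CPM in projection mouse 1 and at no more than 0.037 CPM in the others. Each gap was above Dixon's critical value for 4 samples. Of 40 groups of values examined in this way 2 stood out, and chance gives about 1 in 20. Egr3 rests on too few cells to be read. Among the 101 cells that were removed for lack of Snap25 or Slc17a7, 50 (49.5%) held a count of at least 1 member. Whether that share is high for cells of their depth was not tested. Their median total was 4813 counts. They were in no comparison.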

How the results depend on the processing

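Homer1 and Arc kept their direction in both main comparisons under every alternative run. In the comparison of Synpr classes, 1203 genes were called, against 1995 with the animal as a replicate block, 1993 with DESeq2 and 601 with cells without a projection label only, an alternative chosen after seeing the data, and between 545 and 1581 when each mouse was left out in turn. Members called were 1, against 2 with the block, with DESeq2, with no filter on low counts and with thinned cells, and 0 to 1 without a mouse. For RSC against LEC, 552 genes were called, against 1227 with DESeq2 and 854 with the mean CPM of cells in limma, and 59 to 391 without a mouse. Members called were 1, against 2 with the block and 0 without any of the mice. For RSC against unlabelled, 228 were called, against 720 with DESeq2, 454 with thinned cells, 120 without plate 12, 438 with the mean CPM and 8 to 47 without a mouse. For LEC against unlabelled, 0 were called, against 2 with the block, 123 with DESeq2, 9 with no filter, 46 with thinned cells, 20 with the mean CPM and 0 to 2 without a mouse. Within Synpr-high cells, RSC against LEC gave 0, against 42 with DESeq2, 9 with no filter, 5 without plate 12, 1 with the mean CPM and 0 without a mouse, and RSC against unlabelled gave 0, against 10 with DESeq2 and 1 with the mean CPM. In Synpr-lower cells, LEC against unlabelled gave 3, against 37 with DESeq2, 23 with no filter, 27 with thinned cells, 1 without plate 12, 11 with the mean CPM and 0 to 1 without a mouse. The difference of that contrast between classes gave 2, against 38 with DESeq2, 9 with no filter, 0 with thinned cells, 0 with the mean CPM and 0 to 1 without a mouse. No member was called in these last 6 comparisons under any setting. The replicate block changed no other call of a member. The cause of these changes was not tested.

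Some directions of members that did not pass were reversed. In the comparison of Synpr classes Fosb fell to -0.077 in thinned cells and Ier2 to -0.0017 with the mean CPM of cells, and between mice left out Ier2 ran from -0.10 to 0.39. For RSC against LEC, Ier2 fell to -0.081 with the mean CPM, and Fos ran from -0.58 to 0.20 between mice left out. Members per cell, 3.55 as a mean of the 4 mice, were 2.71 when thinned to 10000 counts, 4.49 unthinned and 2.57 where at least 2 counts were asked, and 3.25 to 3.76 without a mouse. The median co-detection ratio of 1.20 was 1.32 when thinned to 10000 counts, with 35 of 36 pairs above the product. The shallow cells of the blindly sampled mouse limit what can be seen of Fosb, Npas4 and Ier2 there, and Egr3 was below what this depth resolves.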
